A study of Saccharomyces cerevisiae with 26 samples.

Results

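The 10 genes described here form the inositol-regulated branch of phospholipid synthesis in *Saccharomyces cerevisiae* CEN.PK113-7D, a haploid laboratory strain. They were selected on the measured changes of *INO1* between culture conditions, listed by systematic name, and are 10 of the 6600 gene identifiers in the deposited tables. *INO1* is therefore described throughout without a test. In the 3 comparisons against the reference cultures at pH 5 and 0.04% CO2, where its changes had been noticed, the other 9 members are also given without a test. The study asked how acidity and a high CO2 fraction affect yeast that grows very slowly on limiting glucose. Transcripts were measured by RNA sequencing as FPKM (fragments per kilobase of transcript, relative to all mapped fragments of the library) in 26 libraries.

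The cultures were aerobic, glucose-limited and grown in synthetic medium with vitamins. Chemostats, which are continuous cultures at a fixed growth rate, were run at a dilution rate of 0.025 per h in 4 conditions with 3 libraries each. These were low pH/high CO2 (pH 3 and 50% CO2 in the inlet gas), high CO2 alone (pH 5 and 50% CO2), low pH alone (pH 3 and air, given as 0.04% CO2) and the reference cultures (pH 5 and 0.04% CO2). The low pH/high CO2 group consisted of 1 library labelled as a chemostat (replicate 3) and of the industrial retentostats at point 1 (replicates 1 and 2), which were still chemostats when sampled. Retentostats are continuous cultures in which all biomass is held back so that growth slows towards zero. They were run in duplicate and sampled at 4 points under industrial conditions (pH 3, 50% CO2) and laboratory conditions (pH 5, 0.04% CO2). The growth text of the low pH alone and reference chemostats names compressed air but also 50% CO2; the groups follow the listed CO2 value of each sample. Low-pH cultures oscillated in their off-gas and contained more non-viable cells according to the study, and the part of this in the transcript levels was not tested. The feed of the industrial retentostats had 20 g/L sugar throughout, whereas that of the laboratory retentostats had 20 g/L before and 7.5 g/L after biomass retention began, and lacked the extra iron and biotin of all other media. The vitamin mixture named for all these media is a standard one that supplies inositol.

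The FPKM steps gave library totals of 12528648 to 16709016 reads in the chemostat comparison. The lowest member value, for *INO2* in a low pH alone library, rested on 132 reads. With these steps 99.8% to 99.9% of the values of up to 1000 reads were within 0.05 of a whole read. Values below are FPKM divided by 1 factor per library (scaled FPKM), since the median gene of the deposited FPKM was 0.60 higher on the log2 scale under low pH/high CO2 than under low pH alone. Replicates correlated at r = 0.960 to 0.997 over all genes that passed a mean of 10 FPKM. In the retentostats, 6.83% of genes were more than 2-fold apart between the 2 laboratory cultures at point 2, against 0.194% to 1.41% at the other laboratory points. For *INO2* and *INO4*, which were highest in the first of these cultures at point 2, results are given without it as well. Other laboratory results include it, apart from counts with 1 library left out. All 10 members passed the filter in every comparison.

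Yeast makes its major membrane phospholipids from phosphatidic acid by way of CDP-diacylglycerol. Phosphatidylserine is formed first, is decarboxylated to phosphatidylethanolamine and is then methylated to phosphatidylcholine, while inositol enters a parallel branch as phosphatidylinositol. The transcription factors Ino2 and Ino4 bind as a pair to the UASINO element, whose core is CATGTG, in the promoters of these genes. When inositol is plentiful, phosphatidic acid is consumed and the repressor Opi1 leaves the endoplasmic reticulum, where Scs2 holds it, enters the nucleus and blocks Ino2. *INO1*, which encodes the synthase that makes inositol phosphate from glucose 6-phosphate, is the classic target of this circuit.

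The promoters of the members were read from the R64 reference genome, which comes from strain S288C and not from the strain cultivated. Of the 10 members, 9 had CATGTG on either strand within 400 bases before the coding sequence, the exception being *OPI1*, against 10.6% of 6020 promoters of that length. Of the members, 6 had more than 1 match, against 0.947% of promoters; matches on both strands that overlapped, as in CACATGTG of *CHO2* and *INO2*, were counted separately. The 7-base word CATGTGA was found in 8 members, against 3.11% of promoters. Since the members were listed as genes of the inositol-regulated branch, whose element has the CATGTG core, nothing is read from these shares. Stretches of the promoters of *INO1* and of the members whose levels fell at 50% CO2 among the pH 3 cultures are shown in the direction of the gene, with matches to CATGTG on either strand in capitals.
INO1 (chrX:136091-136191, minus strand): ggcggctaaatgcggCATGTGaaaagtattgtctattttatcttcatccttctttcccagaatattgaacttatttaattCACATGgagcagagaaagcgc
OPI3 (chrX:573063-573162, minus strand): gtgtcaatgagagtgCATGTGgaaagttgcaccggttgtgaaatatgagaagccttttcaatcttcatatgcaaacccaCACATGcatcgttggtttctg
PSD1 (chrXIV:317815-317926, minus strand): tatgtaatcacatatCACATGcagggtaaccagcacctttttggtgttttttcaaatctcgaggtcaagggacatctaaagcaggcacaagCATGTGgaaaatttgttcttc
HNM1 (chrVII:364163-364198, minus strand): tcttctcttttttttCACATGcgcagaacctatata
CHO1 (chrV:208613-208648, minus strand): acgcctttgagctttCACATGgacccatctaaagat

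The *INO1* and *OPI3* stretches each hold 2 matches, 1 per strand. They begin 243 and 178 bases before the coding sequence of *INO1*, and 212 and 148 bases before that of *OPI3*. The pair in *OPI3* lacks the A that follows the core in CATGTGA, which *INO1* has at both of its matches. A match is a description of these letters in the reference strain and not evidence that the factors were bound in these cultures.

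*INO1* (YJL153C, chrX:134332-135933) was lower in each of the 3 altered chemostat conditions than in the reference cultures. Its scaled FPKM was 86.4, 100.0 and 146 under low pH/high CO2, 113, 169.5 and 127 under high CO2 alone, 176, 285 and 271 under low pH alone, and 431, 507 and 418 in the reference cultures. Every library of the last group lay above every other library, and both 50% CO2 groups lay below both 0.04% CO2 groups. The means were 111 ± 31.4 under low pH/high CO2, 136 ± 29.5 under high CO2 alone, 244 ± 59.1 under low pH alone and 452 ± 47.9 in the reference cultures (SD, n = 3 each), which is also their order from low to high. In this order only the neighbours low pH/high CO2 and high CO2 alone overlapped.

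On the scale of log2(scaled FPKM + 1), used for all differences below, *INO1* differed from the reference cultures by -1.74 ± 0.23 under high CO2 alone, by -0.91 ± 0.23 under low pH alone and by -2.05 ± 0.23 under low pH/high CO2 (SE). The largest of these is a level 4.13-fold lower. Among pH 3 cultures the difference at 50% CO2 was -1.14 ± 0.23, and among 50% CO2 cultures the difference at pH 3 was -0.31 ± 0.23. With the single labelled chemostat library under low pH/high CO2 in place of all 3, the difference between the 50% CO2 cultures changed sign to 0.12 and the difference from the reference cultures became -1.62. In the deposited FPKM without scaling, *INO1* had -1.34 under low pH alone against the reference cultures and -0.53 at 50% CO2 among pH 3 cultures. The medians of all genes in these 2 comparisons of deposited FPKM were -0.42 and 0.60. In these bulk cultures, fewer cells that express a gene and less of its RNA per cell cannot be told apart.

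The transporter genes did not share the *INO1* pattern. *ITR1* (YDR497C), the main inositol transporter gene, had 369, 381 and 630.1 scaled FPKM under low pH/high CO2, 367, 583 and 476 under high CO2 alone, 519, 756 and 765 under low pH alone, and 494, 548 and 556 in the reference cultures. Each of the altered groups overlapped the last one. *HNM1* (YGL077C), which encodes the transporter of choline and ethanolamine, had 143, 121 and 143 scaled FPKM under low pH/high CO2, 137, 266 and 229 under high CO2 alone, 283, 309.6 and 328 under low pH alone, and 220.3, 236 and 136 in the reference cultures. Its 3 libraries under low pH alone stood above all others.

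*CHO1* (YER026C), the phosphatidylserine synthase gene, had 271, 255 and 344 scaled FPKM under low pH/high CO2, 262, 447 and 401 under high CO2 alone, 534, 645 and 657 under low pH alone, and 579, 553 and 396 in the reference cultures. *PSD1* (YNL169C), which encodes the mitochondrial phosphatidylserine decarboxylase, had 38.0, 38.8 and 45.2 scaled FPKM under low pH/high CO2, 46.2, 58.3 and 52.8 under high CO2 alone, 72.3, 95.8 and 98.9 under low pH alone, and 62.9, 67.7 and 66.1 in the reference cultures. The 4 groups of *PSD1* did not overlap, and the order was low pH/high CO2, high CO2 alone, the reference cultures and low pH alone from low to high.

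*CHO2* and *OPI3* encode the methyltransferases that convert phosphatidylethanolamine to phosphatidylcholine in successive steps. *CHO2* (YGR157W), of the first step, had 102, 104 and 166 scaled FPKM under low pH/high CO2, 92.2, 143 and 136 under high CO2 alone, 138, 208 and 204 under low pH alone, and 172, 169 and 117 in the reference cultures, with overlap between all neighbouring groups. *OPI3* (YJR073C), of the later steps, had 68.3, 80.3 and 103 scaled FPKM under low pH/high CO2, 120.1, 218 and 227 under high CO2 alone, 175, 299 and 314 under low pH alone, and 221, 274 and 193 in the reference cultures. The *OPI3* libraries under low pH/high CO2 lay below every library of the other 3 groups.

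**Figure D1:**
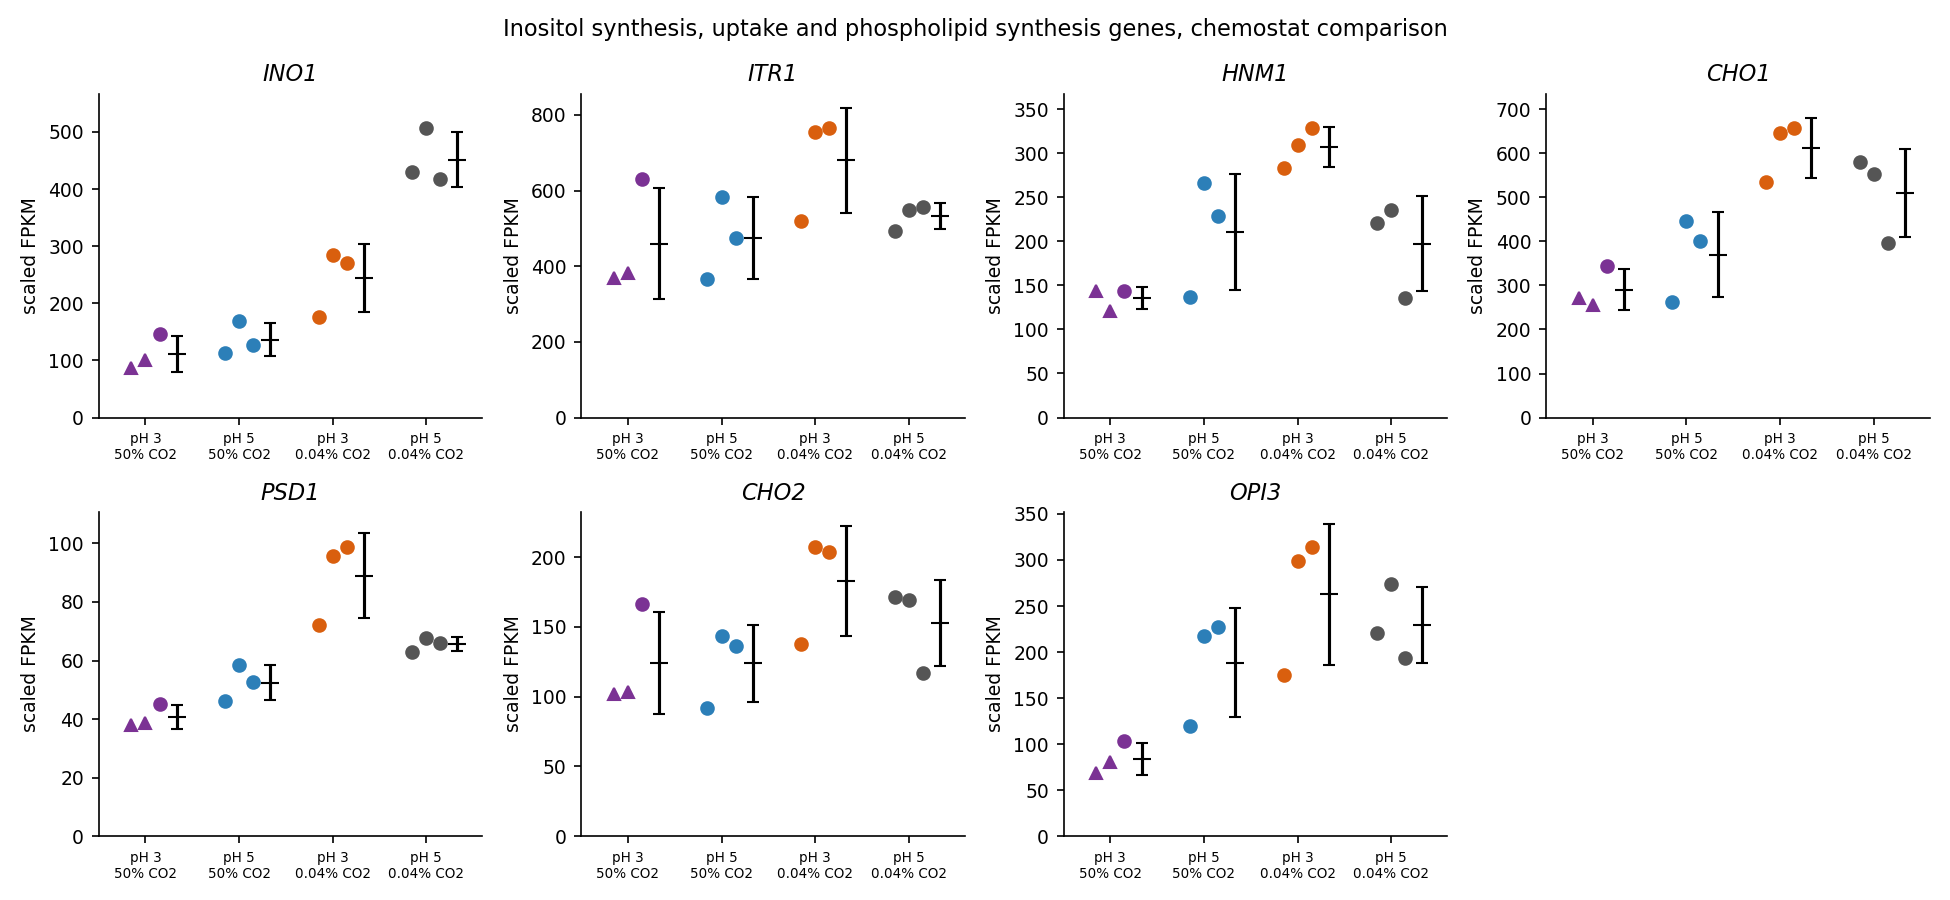
Scaled FPKM of *INO1*, both transporter genes and the 4 phospholipid synthesis genes in the 12 libraries of the chemostat comparison, with 1 panel per gene and an axis from 0. Circles are chemostat libraries, triangles are industrial retentostats at point 1, and the black marks are mean ± SD (n = 3); *INO1* averaged 111 under low pH/high CO2 against 452 in the reference cultures, while the highest *PSD1* and *HNM1* values were under low pH alone.

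The regulator genes had patterns of their own. *INO2* (YDR123C), the activator gene at the lowest level of all members in these 12 libraries, had 17.7, 18.2 and 17.2 scaled FPKM under low pH/high CO2, 21.4, 17.0 and 16.2 under high CO2 alone, 17.0, 16.1 and 15.0 under low pH alone, and 25.5, 33.4 and 28.3 in the reference cultures. All libraries of the 3 altered conditions were below those in the reference cultures, as for *INO1*. *INO4* (YOL108C), encoding its partner, had 129, 157 and 202 scaled FPKM under low pH/high CO2, 149.6, 100.2 and 107 under high CO2 alone, 89.0, 103 and 102 under low pH alone, and 113, 109 and 162 in the reference cultures. *OPI1* (YHL020C), the repressor gene, ranged between 69.0 and 102 scaled FPKM and overlapped between all groups.

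**Figure D2:**
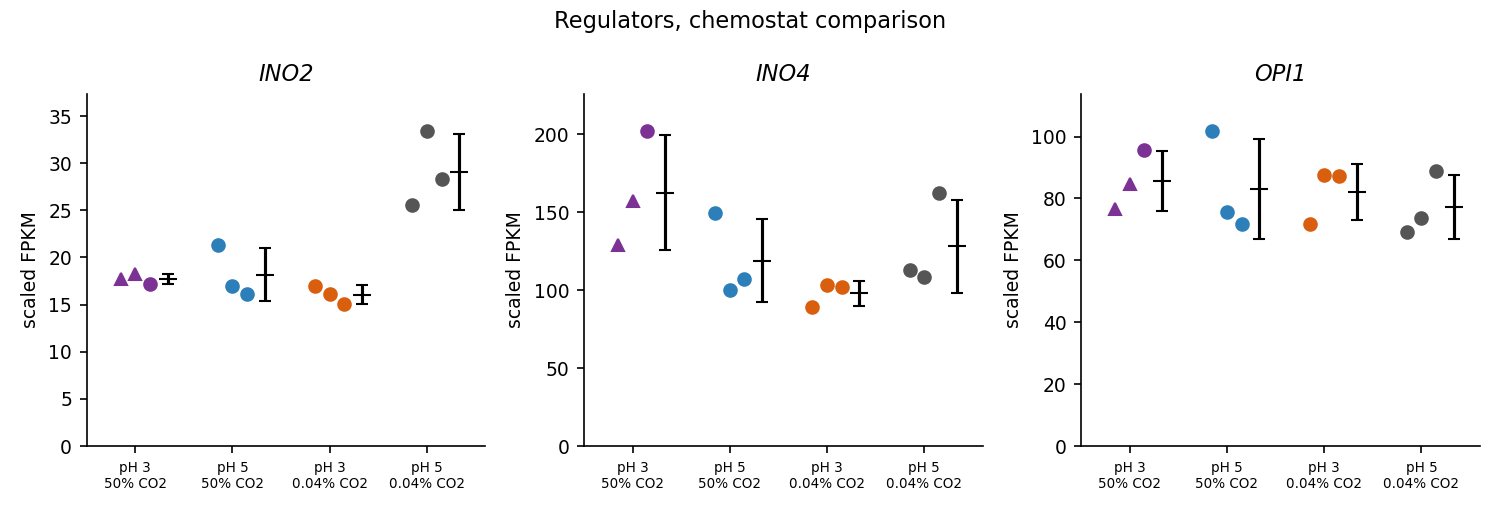
Scaled FPKM of the regulator genes *INO2*, *INO4* and *OPI1* in the 12 libraries of the chemostat comparison, with symbols as for the enzyme genes and black marks for mean ± SD (n = 3). *INO2* lay at 15.0 to 21.4 in the 3 altered conditions against 25.5 to 33.4 in the reference cultures, and *OPI1* overlapped between all groups.

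In the 3 comparisons against the reference cultures, *INO2* differed by -0.68 ± 0.13 under low pH/high CO2, by -0.65 ± 0.13 under high CO2 alone and by -0.81 ± 0.13 under low pH alone (SE). Under low pH/high CO2, *OPI3* differed by -1.45 ± 0.28, *CHO1* by -0.80 ± 0.22 and *PSD1* by -0.68 ± 0.14. These 4 of the 9 members other than *INO1* were the ones whose libraries did not overlap those in the reference cultures, all lower, where 16.1% of the 5078 genes tested were lower without overlap. Under high CO2 alone, *INO2* and *PSD1* (2 of 9) were lower without overlap, where 8.19% of all genes were. Under low pH alone, 4 of 9 did not overlap, where 46.3% of all genes did not. *INO2* and *INO4* were lower there, and *HNM1* and *PSD1* were higher, by 0.67 ± 0.25 and 0.42 ± 0.14. With the deposited FPKM these 2 values became 0.24 and -0.0046, and *INO2* had -1.22 under low pH alone. The median of all genes there was -0.42, so *HNM1* and *PSD1* stayed above it and *INO2* below it. Since the members were listed after *INO1* had been seen to change in these same comparisons, nothing is read from these counts.

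Within a condition, replicates shifted many members together. Replicate 1 was the lowest of 3 for all 7 of *INO1*, both transporter genes and the 4 phospholipid synthesis genes under high CO2 alone and again under low pH alone. Replicate 3 under low pH/high CO2, the library labelled as a chemostat, was the highest of 3 for all 7. In the reference cultures, replicate 3 was the lowest for 5 of 7. The regulator genes did not share these shifts throughout. *INO2*, *INO4* and *OPI1* were highest, not lowest, in replicate 1 under high CO2 alone, and *INO4* and *OPI1* were highest in replicate 3 of the reference cultures. The source of these shifts was not tested.

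The comparison of 50% CO2 with 0.04% CO2 among the pH 3 cultures was tested with limma across 5078 genes. Its libraries also entered the comparisons against the reference cultures, and *INO1* was lower at 50% CO2 here too. The test is therefore not independent of how the members were chosen. *OPI3*, *HNM1*, *PSD1* and *CHO1* fell by more than 2-fold at 50% CO2, while the 3 regulator genes, *ITR1* and *CHO2* did not pass the limits of a 2-fold change and a Benjamini-Hochberg adjusted p under 0.005. *OPI3* fell by 1.61 ± 0.28 on the log2 scale (SE, limma adjusted p = 0.0015), a level 3.05-fold lower. *HNM1* fell by 1.17 ± 0.25 (limma adjusted p = 0.00381), *PSD1* fell by 1.10 ± 0.14 (limma adjusted p = 0.000294) and *CHO1* fell by 1.08 ± 0.22 (limma adjusted p = 0.00306). In each of these 4 genes all 3 libraries under low pH/high CO2 were below all 3 under low pH alone, as was so for 33.8% of all genes. The 4 of 9 members that passed, all lower, compare with 8.21% of all genes that passed in that direction and 8.92% in either. Since the choice of members was not independent of these libraries, the count is given as a description.

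Values of the other members in the same test were -0.59 ± 0.24 for *ITR1* (limma adjusted p = 0.0587), -0.57 ± 0.25 for *CHO2* (limma adjusted p = 0.0757), 0.13 ± 0.13 for *INO2* (limma adjusted p = 0.407), 0.70 ± 0.21 for *INO4* (limma adjusted p = 0.0176) and 0.06 ± 0.16 for *OPI1* (limma adjusted p = 0.771). *INO2* and *INO4* (2 of 9) had higher values in all 3 libraries under low pH/high CO2, as did 33.9% of all genes, but stayed under a 2-fold change. The median of the 9 members was -0.59, against 0.01 over all genes.

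These calls depended on the scaling between libraries and on single libraries. In the deposited FPKM without scaling, where the median of all genes was 0.60, *OPI3* was the only member that fell (-1.01, limma adjusted p = 0.00322) and *INO4* rose (1.31, limma adjusted p = 0.00185), while *HNM1*, *CHO1* and *PSD1* had -0.57, -0.47 and -0.50. Over all genes, 36 were called higher and 417 lower in the scaled values, against 1054 higher and 149 lower in the deposited FPKM. Relative to the median of all genes, the sign of each of these 5 values was the same under both scalings. Quantile normalization left 2 members called. When each of the 12 libraries was left out in turn, *PSD1* passed in 12 of 12 fits, *OPI3* in 8, *CHO1* in 6 and *HNM1* in 4, and only 1 member passed without either retentostat library under low pH/high CO2 or without replicate 2 or 3 under low pH alone. With the single labelled chemostat library under low pH/high CO2, 0 members passed, and *OPI3* had -1.29 (limma adjusted p = 0.0425) and *PSD1* -0.95 (limma adjusted p = 0.0119).

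**Figure D3:**
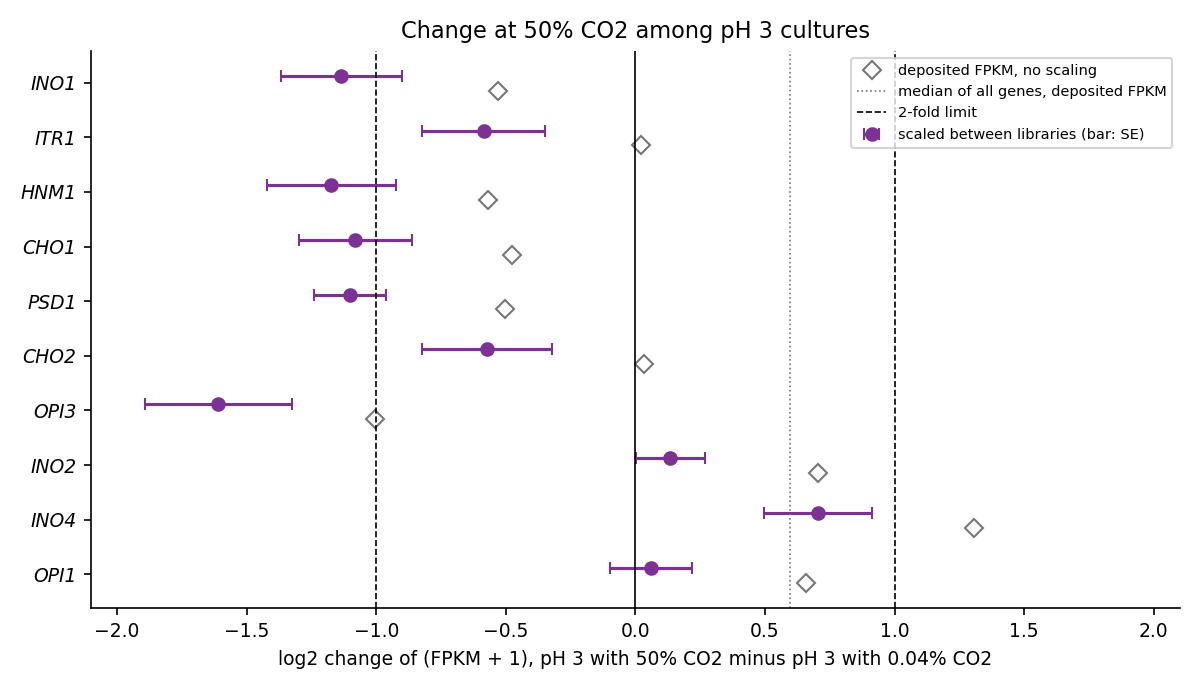
Differences of the 10 members on the log2 scale, low pH/high CO2 minus low pH alone (3 libraries each). Filled circles with SE bars are scaled values and open diamonds are deposited FPKM without scaling, whose median over all genes is the dotted line at 0.60; *OPI3* has the lowest value (-1.61) and *INO4* the highest (0.70) among the scaled values. *INO1* was used to choose the members.

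Between the 50% CO2 cultures, at pH 3 against pH 5, 0 of 9 members passed the limits in limma, where 1.00% of all genes did. Of the 9, 3 had an unadjusted p under 0.05. No share of all genes at that unadjusted limit is given, here or below, so nothing is read from such counts. *OPI3* was nearest to the limits with -1.12 ± 0.28 (limma adjusted p = 0.0384), all 3 libraries at pH 3 being below all 3 at pH 5. *PSD1* had -0.36 ± 0.14 (limma adjusted p = 0.121), also without overlap, whereas 14.8% of all genes were lower without overlap.

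The interaction, the change with 50% CO2 at pH 3 minus the change with 50% CO2 at pH 5, asked whether both factors together differed from the sum of their separate changes. It also passed for 0 of 9 members in limma, against 2.64% of all genes, and 5 of 9 had an unadjusted p under 0.05. *HNM1* had -1.25 ± 0.35 (limma adjusted p = 0.0299), *OPI3* -1.29 ± 0.40 (limma adjusted p = 0.0418), *PSD1* -0.78 ± 0.20 (limma adjusted p = 0.0197), *INO2* 0.78 ± 0.19 (limma adjusted p = 0.0169) and *INO4* 0.81 ± 0.29 (limma adjusted p = 0.0642). In the deposited FPKM, where the median of all genes was 0.62, these 5 values became -0.63, -0.66, -0.16, 1.37 and 1.43 in the same order, and 0 of 9 passed. Without replicate 1 under high CO2 alone, *HNM1* passed with -1.53 (limma adjusted p = 0.00288). *INO1*, given without a test, had 0.60 ± 0.33, so that its separate differences at 50% CO2 and at pH 3 summed to more than the difference at both. This *INO1* value was 1.22 in the deposited FPKM, 1.03 with the single labelled chemostat library, and between 0.37 (without replicate 1 under low pH alone) and 0.76 with 1 library left out.

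Other genes of lipid synthesis and its regulation were taken from 6 lists with 42 genes, of which 41 were tested in the comparison of 50% CO2 with 0.04% CO2 at pH 3. There 8 fell and 0 rose in the scaled values, where 8.21% of all genes were called lower and 0.709% higher. In the deposited FPKM 3 fell and 6 rose, where 149 of 5078 genes were called lower and 1054 higher. Of the 4 genes of the fatty acid list 3 were among them. *ACC1*, encoding acetyl-CoA carboxylase, fell by 1.95 ± 0.28 (limma adjusted p = 0.000486). Of the fatty acid synthase genes, *FAS2* fell by 1.48 ± 0.24 (limma adjusted p = 0.000978) and *FAS1* fell by 1.30 ± 0.28 (limma adjusted p = 0.00407). *ACC1* averaged 119 ± 33.0 scaled FPKM under low pH/high CO2 and 476 ± 176 under low pH alone (SD, n = 3 each). The median of this list was -1.41.

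*CDS1*, the gene of CDP-diacylglycerol synthase, was 1 of 11 tested genes of the phosphatidic acid list to fall, by 1.23 ± 0.19 (limma adjusted p = 0.000757), with a list median of -0.51. *SCS2*, whose product holds Opi1 at the endoplasmic reticulum, was 1 of 5 regulators outside the members and fell by 1.45 ± 0.26 (limma adjusted p = 0.0018). It averaged 180.0 ± 52.6 scaled FPKM under low pH/high CO2 and 477 ± 30.5 under low pH alone (SD, n = 3 each).

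In the unfolded protein response list 3 of 10 passed, all lower. *HAC1*, the gene of the transcription factor of this response, fell by 1.81 ± 0.25 (limma adjusted p = 0.000409). Of the protein disulfide isomerase genes, *PDI1* fell by 1.63 ± 0.24 (limma adjusted p = 0.00055) and *EUG1* fell by 1.16 ± 0.21 (limma adjusted p = 0.00159). The median of this list, -0.07, was near that of all genes. No gene of the CDP-choline and CDP-ethanolamine routes (0 of 6) or of the inositol supply (0 of 5) passed in limma, and their medians were -0.03 and 0.00. In the former list *CPT1* and *EPT1* had -1.07 ± 0.27 and -1.03 ± 0.25 (limma adjusted p = 0.00984 and 0.00693), beyond 2-fold but short of the p limit. *ECT1* and *CKI1* had -0.04 and -0.02, and *EKI1* and *PCT1* had 0.22 and 0.39. In the deposited FPKM *CPT1* and *EPT1* had -0.46 and -0.44. Of the 8 listed genes that fell in the scaled values, only *ACC1*, *HAC1* and *PDI1* passed in the deposited FPKM, with -1.35, -1.21 and -1.03. The 6 listed genes called higher there were *INM1* of the inositol supply (1.19), *PSD2* of the phosphatidic acid list (1.23), the regulator *REG1* (1.08), and *DER1*, *LHS1* and *ERO1* of the unfolded protein response (1.18, 1.22 and 1.20). They had 0.48 to 0.66 in the scaled values and did not pass. Over the 41 genes, 27 had an unadjusted p under 0.05. In the comparison between the 50% CO2 cultures and in the interaction 0 of the 41 passed in limma, where 1.00% and 2.64% of all genes did. Of the 41, 13 and 19 had an unadjusted p under 0.05.

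In the retentostats the question was how the members changed as growth slowed. Point 1 was the chemostat phase at a dilution rate of 0.025 per h, and points 2 to 4 followed the start of biomass retention. The values were scaled within each condition, so industrial point 1, whose 2 libraries also entered the chemostat comparison, carries other scaled FPKM here than above. The points of the conditions differ in time and growth rate, and the methods, unlike the labels, name different sequencing companies for them. Levels are therefore not compared between the conditions. The number of the sampling point was used as predictor, because the labels hold no growth rates. The sample titles number the later points R1, R5 and R8 under laboratory but R1, R2 and R3 under industrial conditions. Point numbers take them as equally spaced, and no fit used the title numbers. A trend passed with an adjusted p under 0.03 and R2 of at least 0.8.

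*INO1* was lower at the end of both series. Under industrial conditions its scaled FPKM was 101 and 115 at point 1, 115 and 104 at point 2, 68.2 and 65.8 at point 3, and 56.8 and 52.3 at point 4, for cultures 1 and 2. Both cultures stayed level over the first points and were lower at points 3 and 4. Under laboratory conditions it was 894 and 583 at point 1, 86.5 and 109 at point 2, 199 and 105 at point 3, and 149 and 135 at point 4. Its mean fell from 739 at point 1 to 97.9 at point 2, the lowest, and was 152 and 142 at points 3 and 4. Point 4 minus point 1 was -0.97 ± 0.11 under industrial and -2.34 ± 0.33 under laboratory conditions (SE).

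Under industrial conditions *OPI3* and *PSD1* fell with the sampling point. That is 2 of 9 members, both lower, against 2.88% of 5130 genes that passed in that direction and 6.43% in either. *INO1* was lower at the end of this series too, and the point 1 libraries had entered the comparisons in which its changes were noticed. The test is therefore not independent of how the members were chosen, and the count is given as a description. *OPI3* had 79.7 and 92.7 scaled FPKM at point 1, 68.9 and 79.1 at point 2, 72.8 and 69.5 at point 3, and 55.8 and 58.5 at point 4, and fell by 0.18 ± 0.04 per point (limma adjusted p = 0.0166, R2 = 0.823). *PSD1* had 44.4 and 44.7 scaled FPKM at point 1, 38.6 and 37.1 at point 2, 35.9 and 35.5 at point 3, and 34.4 and 32.1 at point 4, and fell by 0.13 ± 0.03 per point (limma adjusted p = 0.0225, R2 = 0.908). Both genes were lower at point 4 than at point 1 in both cultures.

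With the culture as a block, which accounts for repeated sampling of the same 2 cultures, *PSD1* no longer passed (limma adjusted p = 0.0315) and *OPI3* did. The calls were near the limit: *PSD1* passed in 1 of 8 fits with 1 library left out and *OPI3* in 2 of 8. Neither passed in the deposited FPKM, with limma adjusted p = 0.103 for *PSD1* and 0.0842 for *OPI3*.

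*ITR1* had 431 and 440.3 scaled FPKM at industrial point 1, 272 and 356 at point 2, 318 and 279.6 at point 3, and 255 and 245 at point 4. Its slope of -0.25 ± 0.05 had a limma adjusted p = 0.0146 but an R2 of 0.792, just below the limit, and it passed in 2 of 8 fits with 1 library left out. *HNM1* had 167 and 139.6 scaled FPKM at point 1 and 87.7 to 104 at all later points, with a slope of -0.22 ± 0.06 (limma adjusted p = 0.0475). When points 2 to 4 were set against point 1, *HNM1* was the only member called, at -0.69 (limma adjusted p = 0.00474). For point 4 minus point 1, *ITR1*, *HNM1*, *OPI3* and *PSD1* were called, with -0.80, -0.72, -0.58 and -0.41.

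*CHO1* had a slope of -0.13 ± 0.04 (limma adjusted p = 0.0755) and *INO4* one of 0.11 ± 0.04 (limma adjusted p = 0.122) under industrial conditions. *CHO2* stayed between 100.1 and 119.6 scaled FPKM over the 8 libraries and *INO2* between 19.1 and 24.8, with slopes of -0.01 ± 0.04 and 0.01 ± 0.05. *OPI1* had -0.08 ± 0.05 per point (limma adjusted p = 0.345).

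Under laboratory conditions 0 of 9 members passed as a trend in limma, against 9.57% of 5666 genes. Of the 9, 4 had an unadjusted p under 0.05, a limit to which the 9.57% does not apply. Several members were high at point 1 only. *ITR1* had 633 and 793 scaled FPKM at point 1, 173 and 275 at point 2, 267 and 236 at point 3, and 272 and 283 at point 4. *PSD1* had 53.3 and 58.9 scaled FPKM at point 1, 25.9 and 35.0 at point 2, 26.6 and 26.0 at point 3, and 30.7 and 28.5 at point 4. In both genes the point 1 cultures lay above every later one. With points 2 to 4 set against point 1, *ITR1* had -1.51 (limma adjusted p = 0.0179) and *PSD1* -0.94 (limma adjusted p = 0.0179), and both passed. They also passed for point 4 minus point 1, with -1.35 ± 0.25 (limma adjusted p = 0.00811) and -0.90 ± 0.16 (limma adjusted p = 0.00674).

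*OPI3* had 579 and 648 scaled FPKM at laboratory point 1, 155 and 401 at point 2, 264 and 268 at point 3, and 279 and 336 at point 4. *HNM1*, likewise highest at point 1, had 173 and 182 scaled FPKM there and 52.0 to 113 later. *CHO1* had 381 and 375 at point 1, 163 and 263 at point 2, 325 and 319 at point 3, and 315 and 351 at point 4, so that its lowest values were at point 2 only. *CHO2* likewise had 182 and 186 at point 1, 89.6 and 127 at point 2, and 170.0 to 198 at points 3 and 4.

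The regulator genes had other courses under laboratory conditions. *INO2* had 81.9 and 72.3 scaled FPKM at point 1, 150.1 and 81.0 at point 2, 78.3 and 70.7 at point 3, and 54.9 and 71.8 at point 4. *INO4* had 98.7 and 93.3 scaled FPKM at point 1, 208 and 102 at point 2, 134 and 144 at point 3, and 156 and 187 at point 4, with a slope of 0.24 ± 0.10 (limma adjusted p = 0.0818). Without culture 1 at point 2, the library in which *INO2* and *INO4* were highest, the *INO4* slope was 0.28 (limma adjusted p = 0.00215) and passed, and the highest *INO2* value was at point 1. *OPI1* had 128 and 130.1 scaled FPKM at point 1 and 84.0 to 106 later, with a slope of -0.15 ± 0.06 (limma adjusted p = 0.061).

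**Figure D4:**
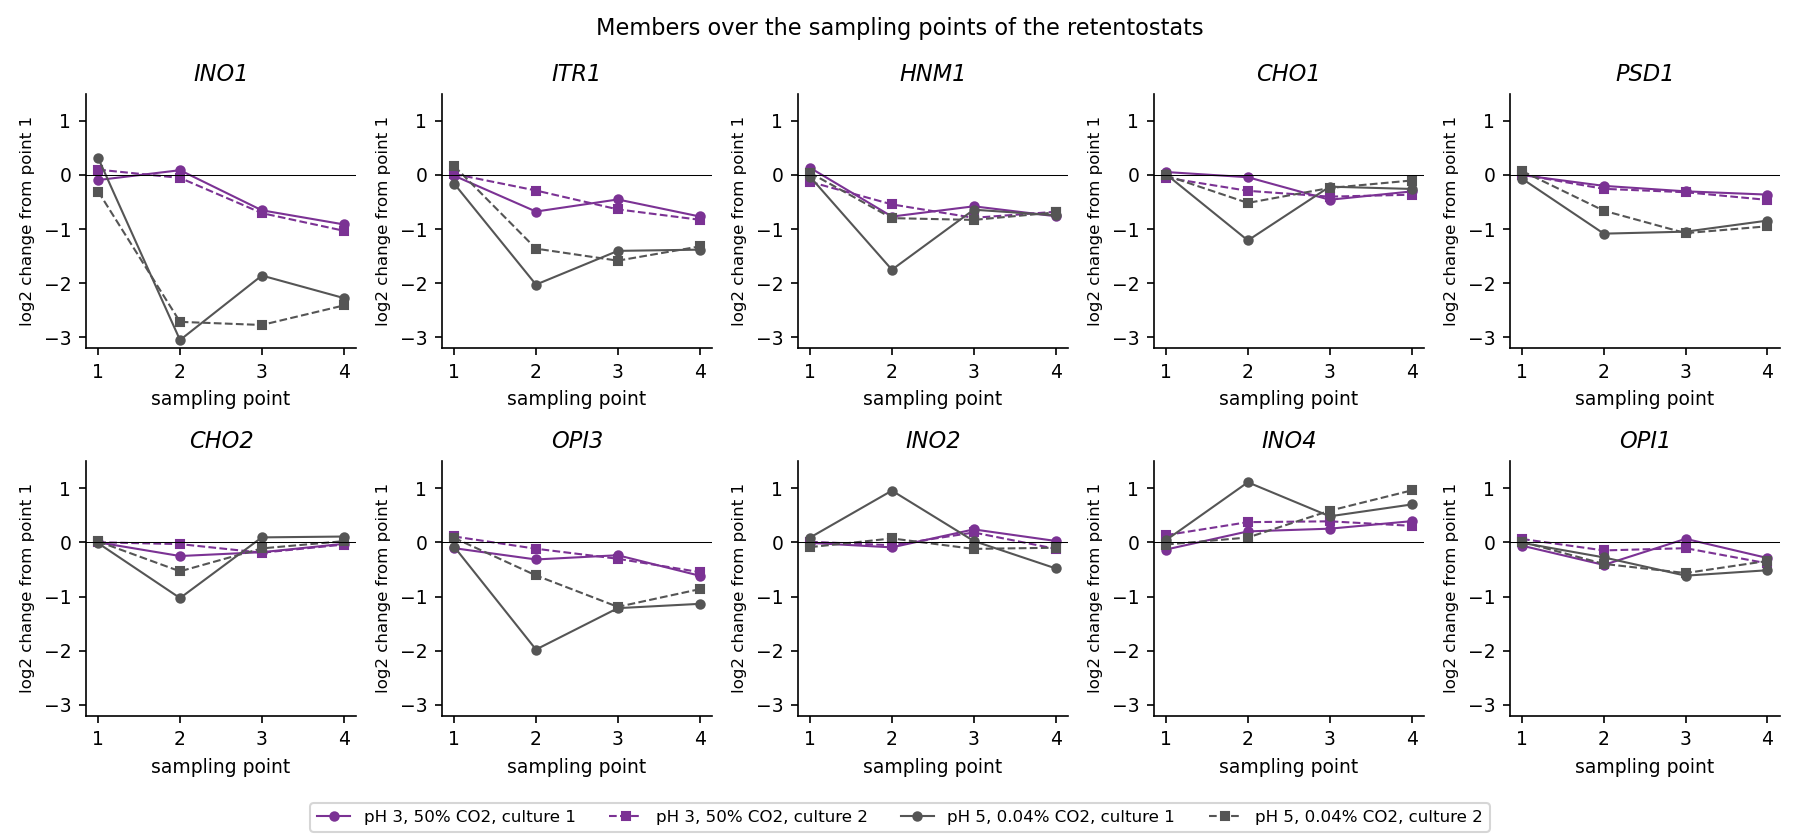
Members over the 4 sampling points of the retentostats, as log2(scaled FPKM + 1) minus the mean of both cultures at point 1 of the same condition. Purple lines are industrial cultures (pH 3, 50% CO2) and grey lines laboratory cultures (pH 5, 0.04% CO2), with culture 1 solid and culture 2 dashed. The laboratory cultures are farthest apart at point 2 in all members but *INO1* and *OPI1*. *INO1* ends at -0.97 under industrial and -2.34 under laboratory conditions.

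The slopes per point, industrial minus laboratory, differed by between -0.14 and 0.16 for the 9 members. Of these 0 of 9 passed an adjusted p under 0.03 in limma, where 3.03% of 5613 genes did, and 0 of 9 had an unadjusted p under 0.05, the lowest limma adjusted p being 0.354. Of the 42 listed genes, *CKI1* (choline kinase), *SCT1* and *SLC1* (acyltransferases on the route to phosphatidic acid), *INM1* (inositol monophosphatase) and *OLE1* (fatty acid desaturase) fell with the point under laboratory conditions, with slopes of -0.28, -0.27, -0.43, -0.35 and -0.43 per point. *DER1*, of endoplasmic reticulum protein degradation, rose by 0.30 per point. Their limma adjusted p values lay between 0.00562 and 0.0114, and of these 6 only *DER1* passed both limits in the deposited FPKM, where *HRD1*, also of endoplasmic reticulum protein degradation, passed too (0.28, limma adjusted p = 0.00672). Under industrial conditions 0 of 41 passed in limma, where 6.43% of all genes did, and 13 had an unadjusted p under 0.05. Under laboratory conditions 4.54% of 5666 genes passed as lower and 5.03% as higher.

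The genes whose pattern over the 12 chemostat libraries was most like that of *INO1* were found by the root mean square distance of log2 values after subtraction of each gene's mean. Nearest of 5077 genes were *YLR108C* at 0.42, *ARG4* (arginine biosynthesis) at 0.43 and *PRM5* (a membrane protein gene) at 0.45, whereas *INO1* itself varied by 0.84 on this measure. *PRM5* averaged 96.7 ± 14.6 scaled FPKM under low pH/high CO2, 108 ± 23.6 under high CO2 alone, 204 ± 32.0 under low pH alone and 274 ± 23.4 in the reference cultures (SD, n = 3 each). Among the members *OPI3* was nearest to *INO1* at rank 20, followed by *CHO1* at rank 23 and *PSD1* at rank 44, and *INO4* was farthest at rank 3940.

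For *OPI3* the nearest genes were *HTB2* (a histone gene) at 0.24, *NHP6A* (a chromatin protein gene) at 0.25 and *YPS6* (an aspartic protease gene) at 0.27, where *OPI3* itself varied by 0.71. *CHO1* was at rank 26, *PSD1* at rank 46 and *HNM1* at rank 82. All points come from the same 12 libraries, so these distances also carry the shifts between replicates, and they are given as a description.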

How the data were processed

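Total RNA of 26 yeast culture samples was sequenced. The deposited FPKM values were made by the authors, per the labels with STAR 2.5.3a, SAMtools, HTSeq and edgeR on genome build R64, and the methods name TMM normalization. No count test was used, because the files hold FPKM. FPKM were divided by a median-of-ratios factor per library, within the 12 chemostat libraries and within each retentostat condition, log2(value + 1) was taken, and genes under a mean of 10 FPKM were left out. The pseudocount of 1 understates changes of low genes.

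Comparisons were fitted with limma 3.58.1 (moderated, with trend, R 4.3.3), all 4 chemostat groups in 1 fit, and p-values were adjusted by Benjamini-Hochberg over all genes tested. Chemostat calls needed a change over 2-fold and adjusted p under 0.005, trends adjusted p under 0.03 and R2 of at least 0.8, and trend differences adjusted p under 0.03. The chemostat and trend limits follow the study's methods; the limit on trend differences was set here. The test was also run on simulated data. The labels number the replicates but nothing says that chemostat libraries of the same number came from 1 culture, so p-values measure the spread between these samples. Retentostat numbers mark cultures sampled 4 times. Same-numbered samples correlated at -0.01 to 0.72 (laboratory) and -0.07 to 0.27 (industrial) in their deviations, so a fit with the culture as a block was set beside the trends.

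Of 6600 gene identifiers, 5917 matched the R64 annotation by name. No 2 of the 26 libraries were identical. Members, gene lists and tests were chosen with earlier results of these data known. All 10 members are named, and of the listed genes those that passed a test, at most 3 per list and comparison. Listed genes called only in the deposited FPKM, and the uncalled genes of the CDP-choline and CDP-ethanolamine routes, were named after their values were seen. Promoter stretches were read from the R64 genome of RefSeq. Alternatives covered scaling, pseudocount, low-value filter, samples in the fit, replicate block, single libraries and the trend predictor.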

Additional observations from a re-analysis of the deposited data

Results flagged for a closer look

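Among the 42 listed genes outside the members, 2 passed a test of the difference in trend between the retentostat conditions, without the culture as a block. Of all 5613 genes tested, 3.03% passed the same limit, so nothing is read from this count. The slope of *GDE1*, encoding a phosphodiesterase that releases choline from glycerophosphocholine, was 0.11 ± 0.03 per point under industrial and -0.10 ± 0.04 under laboratory conditions (SE). The difference was 0.21 ± 0.05 (limma, Benjamini-Hochberg adjusted p = 0.0217) and did not pass in the deposited FPKM (0.16, limma adjusted p = 0.12). Neither slope passed on its own. The slope of *EUG1*, a protein disulfide isomerase gene, was -0.19 ± 0.09 under industrial and 0.39 ± 0.08 under laboratory conditions. The difference was -0.59 ± 0.13 (limma adjusted p = 0.0217) and passed in the deposited FPKM too, with -0.64 (limma adjusted p = 0.0168). Points of the same number differ in time and growth rate between the conditions.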

How the results depend on the processing

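The number of members called, *INO1* excepted, among pH 3 cultures (50% against 0.04% CO2) was 4. It was 2 in the deposited FPKM, 2 with quantile normalization, 2 with the replicate block, 0 with the single labelled chemostat library, and 1 to 4 with 1 library left out. For the interaction and for the laboratory trend it was 0, and 0 to 1 with 1 library left out. For the industrial trend it was 2, against 0 in the deposited FPKM, 1 with the replicate block, 1 for points 2 to 4 against point 1, 4 for point 4 minus point 1, and 0 to 3 with 1 library left out. For the laboratory trend it was 2 for points 2 to 4 against point 1 and 2 for point 4 minus point 1. Among pH 3 cultures *ITR1* and *CHO2* changed sign in the deposited FPKM, to 0.021 and 0.032. The median of all genes was 0.60 there, and both genes stayed below it. *OPI1*, at 0.06, ranged between -0.042 and 0.13 with 1 library left out. Of 89 member counts and 738 single values under an alternative, 24 and 79 left their side of a limit, changed sign or moved by more than the replicate SD. The cause was not tested.

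Over all genes the calls ranged, under all alternatives, between 118 and 1203 (453 as reported) for CO2 at pH 3, between 1 and 102 (51) for pH at 50% CO2, between 0 and 525 (134) for the interaction, between 0 and 1337 (542) for the laboratory trend and between 105 and 1018 (330) for the industrial trend. Against pH 5 with 0.04% CO2 they ranged between 18 and 105 (79) for pH 3 with 50% CO2, between 1 and 28 (28) for pH 5 with 50% CO2 and between 85 and 236 (188) for pH 3 with 0.04% CO2, and for the trend difference between 105 and 211 (170). The laboratory count was 0 without culture 2 at point 1 and 1337 without culture 1 at point 2, and the interaction count was 525 without replicate 1 at pH 5 with 50% CO2. The share of calls that were higher was 32.5% in the deposited FPKM and 77.7% in the scaled values for low pH alone against the reference cultures, 45.1% and 31.6% for low pH/high CO2 against the reference cultures, 42.1% and 9.7% for the interaction, 85.5% and 52.6% for the laboratory trend, and 38.5% and 64.7% for the trend difference. Same-numbered chemostat libraries correlated at -0.80 to 0.50 in their deviations, and the numbers were not taken as pairs. With the replicate block *HNM1* and *CHO1* had limma adjusted p = 0.00879 and 0.00702 among pH 3 cultures. The fewest reads of a member in any library were 132, and the part of depth in these results was not tested.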
